A study of Mus musculus with 8 samples.

Results

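The genes described here are a small cytoprotective set: the metallothioneins Mt1, Mt2 and Mt4, and 7 genes known as targets of the transcription factor NRF2, namely Nqo1, Hmox1, Gclc, Gclm, Srxn1, Txnrd1 and Gpx2. They were taken by gene symbol from the array's platform annotation, and all 10 were found, each on 1 probe set, among 19938 genes with a symbol of their own. Expression was measured on 8 Affymetrix arrays of sorted back-skin keratinocytes from CD1 mice aged 8 weeks, 1 array for each group. The groups were K14Snail CD34 positive, wild type CD34 positive, K14Snail CD34 negative, wild type CD34 negative, K14Snail Mts24 positive, wild type Mts24 positive, K14Snail Mts24 negative and wild type Mts24 negative cells. K14Snail mice are named for the keratin 14 promoter, active in basal keratinocytes, and the transcription factor Snail; wild type mice shared their CD1 background. CD34 marks the hair follicle bulge and Mts24 the upper follicle, and the negative fractions are the stated controls of the positive ones. Each array held pooled cells of mixed sex, from 11 mice in the CD34 sort and 9 in the Mts24 sort, so no array shows the spread between mice. All values are log2 expression as deposited, where 1 unit is a 2-fold difference in signal, and the arrays gave no measure of background.

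NRF2, encoded by Nfe2l2, is a transcription factor that KEAP1 holds at a low level by directing it to degradation. Oxidants and electrophiles release it, and it then binds antioxidant response elements (AREs) at genes for glutathione synthesis, thioredoxin reduction, quinone reduction and haem breakdown. Metallothioneins are small cysteine-rich proteins that bind zinc and copper, and Mt1 and Mt2 are induced through metal response elements (MREs) by the zinc-sensing factor MTF1. Mt4 is the metallothionein of stratified squamous epithelium, where it is known from differentiating cells. In skin, NRF2 is known for protecting keratinocytes against ultraviolet light and chemicals.

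The sequence just upstream of the start is shown for 4 genes. Mt2 stayed near the top of the scale in every array, and Mt4, on the same chromosome, differed strongly between fractions. Nqo1 and Gpx2 were high in the positive fractions. In RefSeq (GRCm38.p6) Mt4, Mt3, Mt2 and Mt1 follow each other in this order on chromosome 8. RefSeq's promoter table held 8 of the 10 genes, and not Hmox1 and Gclc. The 250 bases before the start were searched on both strands for the core of an MRE (TGCACNC or TGCGCNC) and of an ARE (TGACNNNGC). Among 32851 promoters listed there, 21.4% held at least 1 MRE core and 10.2% at least 1 ARE core. Matches are in capitals, and each sequence runs 5′ to 3′ toward the start.
Mt2, chr8:94172368-94172617, plus strand: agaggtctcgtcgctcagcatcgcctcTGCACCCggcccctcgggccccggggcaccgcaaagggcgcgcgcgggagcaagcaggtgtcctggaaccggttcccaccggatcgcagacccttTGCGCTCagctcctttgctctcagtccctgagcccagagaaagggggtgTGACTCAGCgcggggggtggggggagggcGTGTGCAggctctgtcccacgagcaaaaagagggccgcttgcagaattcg
Mt4, chr8:94136954-94137203, plus strand: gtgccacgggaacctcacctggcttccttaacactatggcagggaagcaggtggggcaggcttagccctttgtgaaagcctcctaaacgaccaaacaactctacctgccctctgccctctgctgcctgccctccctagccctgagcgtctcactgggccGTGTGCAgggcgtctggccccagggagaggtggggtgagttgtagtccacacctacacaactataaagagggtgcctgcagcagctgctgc
Nqo1, chr8:107403206-107403455, minus strand: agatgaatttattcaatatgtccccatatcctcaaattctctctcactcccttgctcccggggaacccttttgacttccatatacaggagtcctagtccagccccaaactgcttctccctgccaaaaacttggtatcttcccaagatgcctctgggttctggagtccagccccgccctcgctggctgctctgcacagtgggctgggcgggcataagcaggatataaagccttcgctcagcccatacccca
Gpx2, chr12:76795555-76795804, minus strand: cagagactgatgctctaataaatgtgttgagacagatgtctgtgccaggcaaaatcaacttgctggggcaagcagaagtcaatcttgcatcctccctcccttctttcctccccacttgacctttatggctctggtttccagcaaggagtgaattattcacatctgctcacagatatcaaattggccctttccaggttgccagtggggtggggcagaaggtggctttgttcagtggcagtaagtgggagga
The Mt2 window held 3 MRE cores and 1 ARE core, and 1.26% of all promoters held 3 or more MRE cores. The Mt4 window held 1 MRE core, as did those of Mt1 and Srxn1, and that of Gclm held 2 MRE cores and 1 ARE core. Of all promoters 5.17% held 2 or more MRE cores. No match was present in the windows of Nqo1 and Gpx2, which says only that these letters are not in these 250 bases. For every gene, Mt1 included, the counts cover only the 250 bases before the listed start, and sites elsewhere were not searched. Of the 3 starts listed for Txnrd1, 1 had an ARE core.

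The arrays were of keratinocytes by their markers. Krt5 lay at 13.68 to 13.87 and Krt14 at 13.28 to 13.80, while all 7 endothelial and both erythroid markers on the array missed the low-value filter of 7.70, the median of all gene values, which a gene had to reach on at least 2 arrays to be tested. All 10 cytoprotective genes were among the 10720 that did. Immune cells were present: the mean log2 level of 11 myeloid and Langerhans markers was 7.49 to 9.02 in the 4 positive and 8.95 to 9.63 in the 4 negative arrays. That of the 5 T cell markers measured was 7.44 to 7.96 in positive and 9.41 to 10.09 in negative arrays. All 10 bulge markers rose in both sorts (median 2.26 in the CD34 and 1.61 in the Mts24 sort, past limma's threshold). Of 8 upper follicle markers 8 rose in the Mts24 sort (median 2.11) and 0 passed in the CD34 sort (median 0.30). The bulge list includes Cd34, the marker used for the CD34 sort, and both lists were chosen with earlier results of these data known. Their counts are therefore no separate support for the identity of the fractions. Over all genes tested 12.1% rose and 11.6% fell in the CD34 sort, and 11.1% rose and 11.7% fell in the Mts24 sort. All 4 tested T cell markers fell in both sorts, and of the myeloid markers 1 fell in the CD34 and 4 in the Mts24 sort. Of 4 tested fibroblast markers 2 rose in the CD34 sort (Col1a2 and Fbln2) and 1 in the Mts24 sort (Fbln2). Of 6 melanocyte markers 1 rose in the CD34 sort (Mitf), and 1 rose (Mitf) and 2 fell (Dct and Tyrp1) in the Mts24 sort, all named after their values were seen. These markers move with the sort differences of the 10 genes given below, and their part in them was not tested. Fewer cells of a type and less RNA per cell cannot be told apart in such samples.

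**Figure D1:**
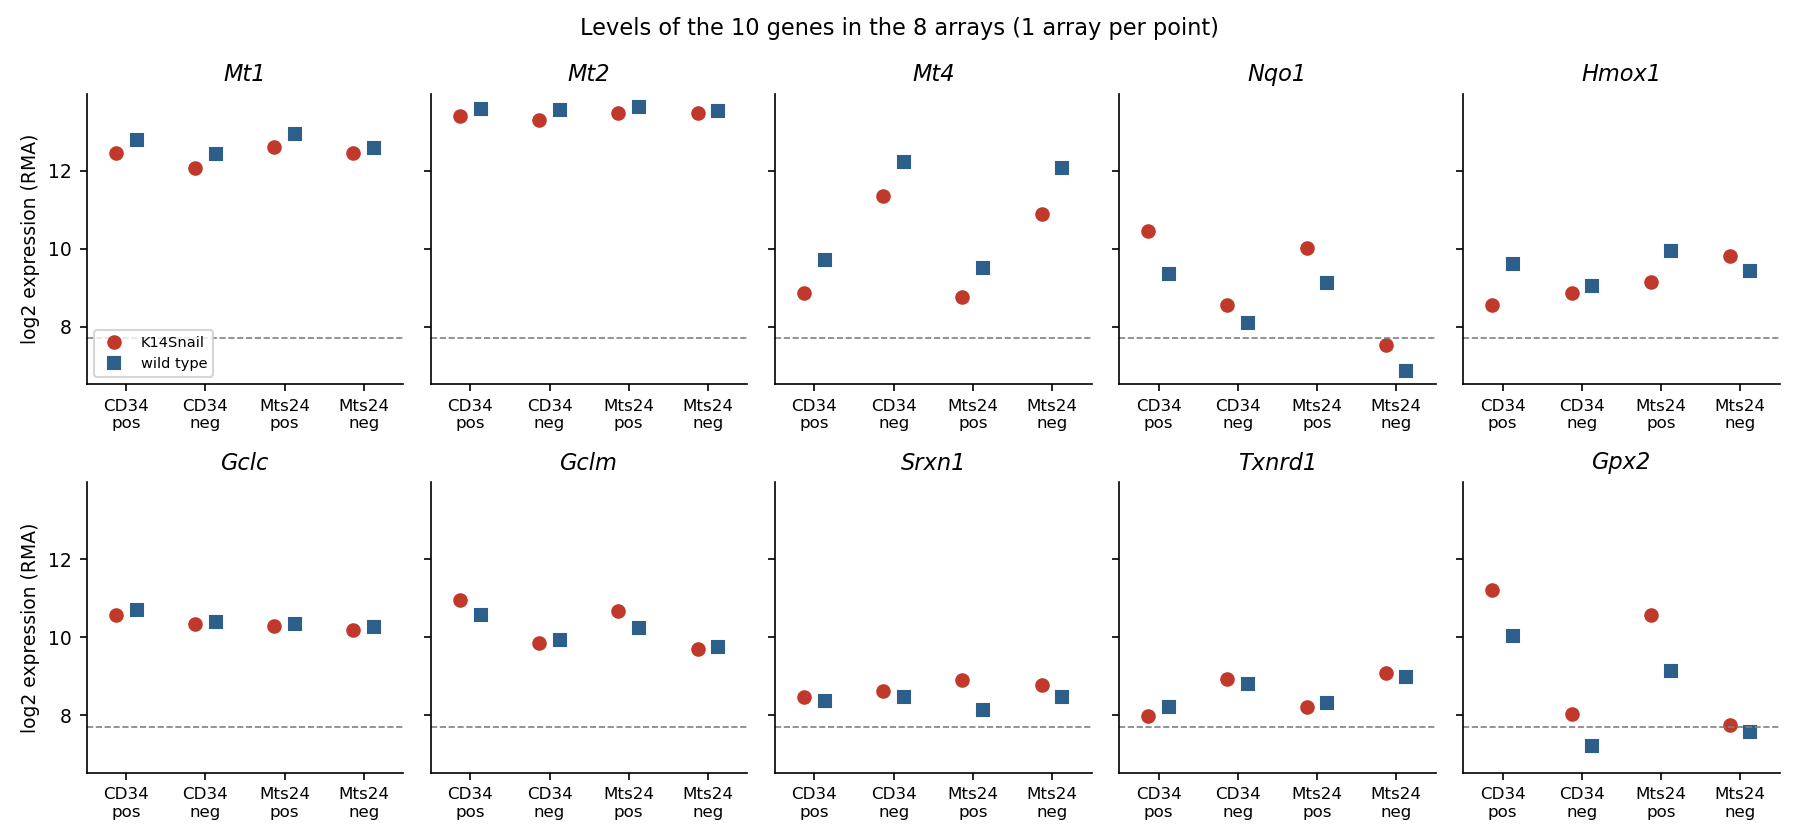
Log2 expression (vertical axes) of the 10 genes in CD34 positive, CD34 negative, Mts24 positive and Mts24 negative cells, with K14Snail arrays as circles, wild type arrays as squares and the low-value filter of 7.70 as a dashed line. Mt1 and Mt2 lie between 12.08 and 13.65 in every array, whereas Mt4, Nqo1 and Gpx2 span 3.46, 3.61 and 4.01 log2 units.

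The first comparison asked how each positive fraction differs from the negative fraction of its sort. In both sorts Gpx2, Nqo1 and Gclm rose in the positive cells, and Mt4 and Txnrd1 fell. Gpx2 was 8.01-fold higher in CD34 positive and 4.55-fold higher in Mts24 positive cells. Nqo1 was 3.0-fold and 5.19-fold higher, and Mt4 was 5.68-fold and 5.10-fold lower. The 10 genes therefore did not move as a block. In the CD34 sort 4 rose, 2 fell and 4 did not pass, in the Mts24 sort 3 rose, 2 fell and 5 did not pass. Among all genes tested 23.7% passed in the CD34 sort and 22.8% in the Mts24 sort at a limma adjusted p of 0.05, so many genes separate these fractions. These were 12.1% higher and 11.6% lower in the CD34 sort, and 11.1% higher and 11.7% lower in the Mts24 sort. The median difference of the 10 genes was 0.20 in the CD34 sort and 0.07 in the Mts24 sort, against -0.03 and 0.02 over all genes tested.

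Gpx2 encodes a glutathione peroxidase of epithelia, which reduces hydroperoxides with glutathione. In the CD34 sort it was at 11.21 in K14Snail and 10.02 in wild type positive cells, against 8.03 in K14Snail and 7.20 in wild type negative cells. Its Mts24 values were 10.56 in K14Snail and 9.12 in wild type positive cells, against 7.74 in K14Snail and 7.57 in wild type negative cells. The positive and negative arrays did not overlap. The differences were 3.0 ± 0.29 in the CD34 sort (limma moderated SE, adjusted p = 0.00174) and 2.19 ± 0.29 in the Mts24 sort (adjusted p = 0.00752), each positive in 2 of 2 pairs. Both wild type negative arrays lay under 7.70, so the size of these differences depends on the background.

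Nqo1, the quinone reductase that turns quinones into hydroquinones in a single step, was likewise higher in the positive cells of both sorts. It was at 10.47 in K14Snail and 9.36 in wild type CD34 positive cells, against 8.56 in K14Snail and 8.10 in wild type CD34 negative cells. Its Mts24 values were 10.02 in K14Snail and 9.13 in wild type positive cells, against 7.54 in K14Snail and 6.86 in wild type negative cells. Again no positive array overlapped a negative one. The differences were 1.58 ± 0.16 in the CD34 sort (adjusted p = 0.00208) and 2.38 ± 0.16 in the Mts24 sort (adjusted p = 0.00157), positive in 2 of 2 pairs each. Both Mts24 negative arrays lay under 7.70.

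Of the genes for glutathione synthesis, Gclm passed in both sorts and Gclc in neither, and no test compared them with each other. Gclm encodes the modifier subunit of glutamate-cysteine ligase, which makes the rate-limiting step more efficient. Its level was 10.95 in K14Snail and 10.57 in wild type CD34 positive cells, against 9.87 in K14Snail and 9.93 in wild type CD34 negative cells. In Mts24 positive cells it was 10.68 in K14Snail and 10.24 in wild type, against 9.70 in K14Snail and 9.76 in wild type Mts24 negative cells. Its groups did not overlap, and it rose by 0.86 ± 0.16 in the CD34 sort (adjusted p = 0.0140) and 0.73 ± 0.16 in the Mts24 sort (adjusted p = 0.0271). The Mts24 call was lost with the pool as a fixed block (adjusted p = 0.0523) and without any 1 of the 4 Mts24 arrays (adjusted p = 0.0561 to 0.157). The CD34 call was lost without the K14Snail CD34 positive array (adjusted p = 0.0555) or the K14Snail CD34 negative one (adjusted p = 0.0927). Gclc, the catalytic subunit, lay within 0.52 log2 units over the 8 arrays, between 10.18 and 10.70. It differed by 0.27 ± 0.08 in the CD34 sort (adjusted p = 0.0692) and 0.09 ± 0.08 in the Mts24 sort (adjusted p = 0.494), which did not pass. Within each pair the positive array was still the higher one for Gclc, by 0.06 to 0.30. With a repeated quantile normalization its CD34 difference passed limma's threshold (0.31, adjusted p = 0.04).

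Txnrd1, the cytosolic thioredoxin reductase, ran the other way. It was at 7.97 in K14Snail and 8.21 in wild type CD34 positive cells, against 8.92 in K14Snail and 8.79 in wild type CD34 negative cells. Its Mts24 values were 8.21 in K14Snail and 8.32 in wild type positive cells, against 9.09 in K14Snail and 8.97 in wild type negative cells. The groups did not overlap, and it fell by 0.77 on the log2 scale in the CD34 sort (SE 0.12, adjusted p = 0.00904) and by 0.76 in the Mts24 sort (SE 0.12, adjusted p = 0.0122). The CD34 call was lost without the K14Snail CD34 negative array (adjusted p = 0.0695). The Mts24 call was lost without the K14Snail Mts24 positive (adjusted p = 0.0679), wild type Mts24 positive (adjusted p = 0.0559) or K14Snail Mts24 negative array (adjusted p = 0.0841). Srxn1, sulfiredoxin, which restores overoxidised peroxiredoxins, was between 8.13 and 8.91 in all arrays. Its differences of -0.12 ± 0.19 in the CD34 and -0.11 ± 0.19 in the Mts24 sort did not pass (adjusted p = 0.714 and 0.720).

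Among the metallothioneins Mt4 stood apart from Mt1 and Mt2. Mt4 was at 8.86 in K14Snail and 9.70 in wild type CD34 positive cells, against 11.35 in K14Snail and 12.23 in wild type CD34 negative cells. After the Mts24 sort it was at 8.77 in K14Snail and 9.50 in wild type positive cells, against 10.90 in K14Snail and 12.07 in wild type negative cells. Every positive array lay below every negative array. The differences were -2.51 ± 0.13 in the CD34 sort (adjusted p = 0.000296) and -2.35 ± 0.13 in the Mts24 sort (adjusted p = 0.00127). Of 11 suprabasal differentiation markers 1 rose (Calml3, 1.79 ± 0.19), 2 fell (Krt1, -1.85 ± 0.44, and Tgm3, -1.24 ± 0.31) and 8 did not pass in the CD34 sort. In the Mts24 sort 1 rose (Calml3, 0.84 ± 0.19) and 10 did not pass. These markers were named after their values were seen. The summed linear signal of the 11 was 29338 in K14Snail and 57770 in wild type CD34 positive cells, against 60924 and 64179 in K14Snail and wild type CD34 negative cells. After the Mts24 sort it was 47748 in K14Snail and 59856 in wild type positive cells, against 84043 and 79403 in K14Snail and wild type negative cells. Their median differences were -0.93 in the CD34 and -0.65 in the Mts24 sort. Their part in the Mt4 result was not tested.

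Mt1 and Mt2 encode the metallothioneins made by most tissues, and their mean levels stood at percentiles 99.1 and 99.9 of all genes. Mt1 was at 12.46 in K14Snail and 12.80 in wild type CD34 positive cells, against 12.08 in K14Snail and 12.44 in wild type CD34 negative cells. After the Mts24 sort it was at 12.63 in K14Snail and 12.94 in wild type positive cells, against 12.46 in K14Snail and 12.60 in wild type negative cells. Within each pair the positive array was the higher one, by 0.17 to 0.38. Mt1 rose by 0.37 ± 0.10 in the CD34 sort (1.29-fold, adjusted p = 0.0440), but not past the threshold in the Mts24 sort (0.25 ± 0.10, adjusted p = 0.119). The CD34 call was lost with each array centred on its median (0.31, adjusted p = 0.0776), with no low-value filter (adjusted p = 0.0637), with a repeated quantile normalization (adjusted p = 0.0515) and without any 1 of the 8 arrays (adjusted p = 0.0582 to 0.210). Mt2 lay between 13.30 and 13.65, a span of 0.35, and its differences of 0.07 ± 0.10 and 0.05 ± 0.10 did not pass (adjusted p = 0.676 and 0.740). The highest value of any probe set was 14.49. Whether signals as high as those of Mt1 and Mt2 still follow the RNA amount was not tested. Their small spans therefore do not show a stable RNA level.

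Hmox1, haem oxygenase 1, had the least regular pattern. In the CD34 sort it was at 8.54 in K14Snail and 9.60 in wild type positive cells, against 8.85 in K14Snail and 9.03 in wild type negative cells. In the Mts24 sort it was at 9.15 in K14Snail and 9.94 in wild type positive cells, against 9.82 in K14Snail and 9.43 in wild type negative cells. The positive array was thus the lower one in both K14Snail pairs and the higher one in both wild type pairs. Averaged over genotypes the differences were 0.13 ± 0.35 in the CD34 and -0.08 ± 0.35 in the Mts24 sort, which did not pass (adjusted p = 0.838 and 0.891).

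**Figure D2:**
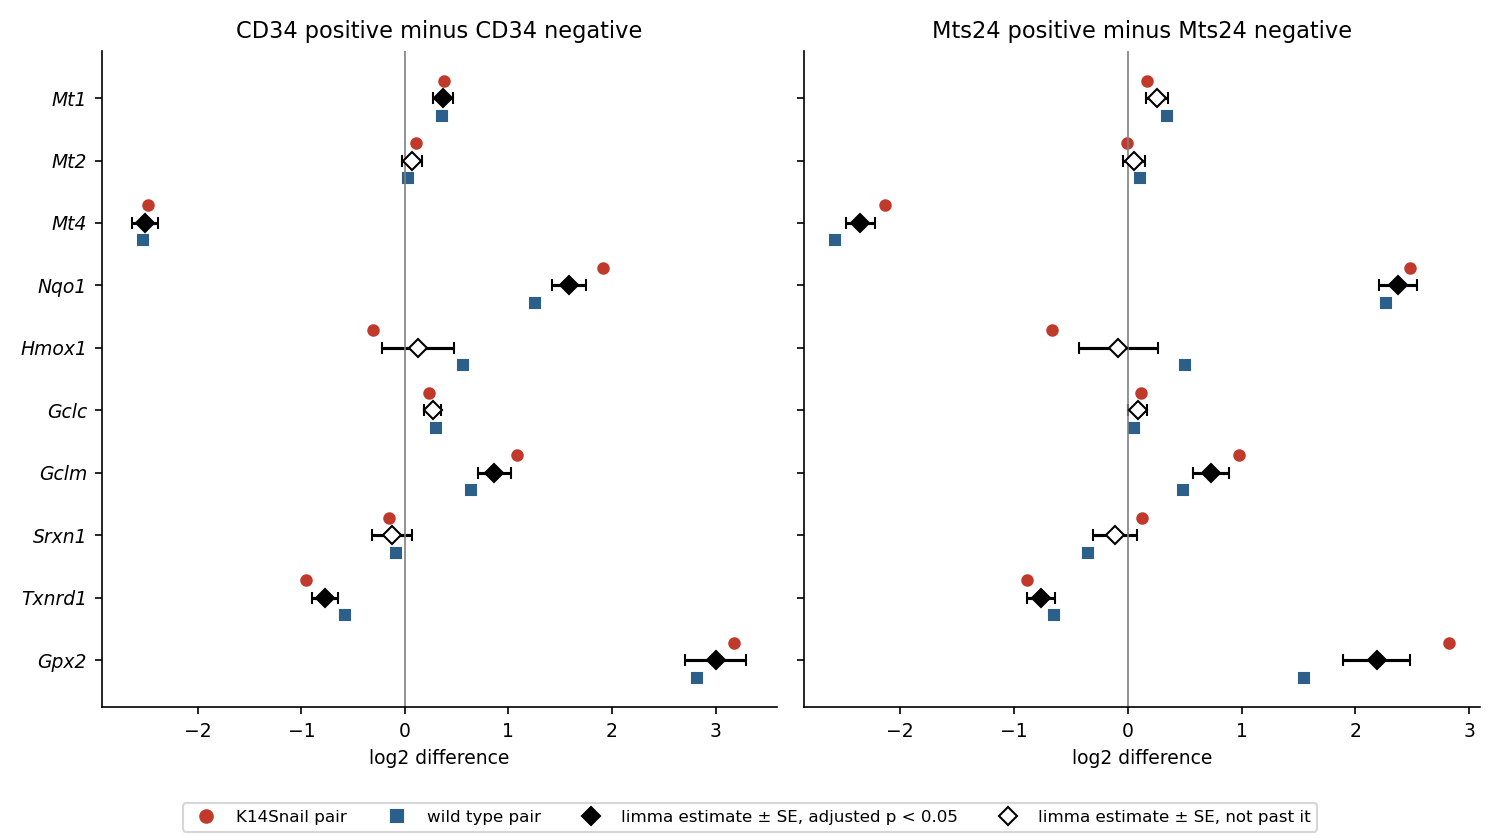
Log2 difference (horizontal axes) of positive minus negative cells for each of the 10 genes in the CD34 sort and in the Mts24 sort, with the K14Snail pair as circles, the wild type pair as squares and limma's estimate with its SE as diamonds, filled where the adjusted p is under 0.05. Gpx2, Nqo1 and Gclm lie to the right and Mt4 and Txnrd1 to the left in both sorts, and the Hmox1 pairs lie on opposite sides of 0.

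Of the 10 genes 5 separated the 4 positive from the 4 negative arrays without overlap, 3 higher and 2 lower, where 28.3% of all tested genes did so, 11.9% higher and 16.4% lower. Removing the Mts24 pool of either genotype, which leaves a single Mts24 pair and 1 residual degree of freedom, left 0 of the 5 Mts24 calls (adjusted p = 0.0992 to 0.322) and 0 among all genes. In the CD34 sort Mt4, Nqo1 and Gpx2 passed under all 20 alternatives, removed pools included.

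The sorts were then compared with each other. The enrichment in CD34 positive cells did not differ past the threshold from that in Mts24 positive cells for any of the 10 genes, where 4.08% of all tested genes passed. The difference between the enrichments was -0.79 ± 0.23 for Nqo1 (95% interval -1.37 to -0.22, adjusted p = 0.147) and 0.81 ± 0.42 for Gpx2 (95% interval -0.22 to 1.84, adjusted p = 0.389). Directly compared, CD34 positive cells held more Gclc than Mts24 positive cells by 0.32 ± 0.08 (adjusted p = 0.0483), the 1 call among the 10 genes, where 13.9% of all tested genes passed. This call was lost under most alternatives, with adjusted p between 0.0377 and 0.339. Gpx2 was higher in CD34 positive than in Mts24 positive cells by 0.77 ± 0.27 and Nqo1 by 0.34 ± 0.15, neither past the threshold (adjusted p = 0.125 and 0.206). Between the negative fractions 0 of the 10 genes and 0.0653% of all genes passed limma's test. Nqo1 was higher in CD34 negative than in Mts24 negative cells by 1.13 ± 0.15 without passing (adjusted p = 0.0952). Sort and pool of mice cannot be told apart in these 2 comparisons.

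The difference between genotypes was measured as K14Snail minus wild type, averaged over the 4 fractions. Mt4 fell and Nqo1 rose in K14Snail cells, and the other 8 genes did not pass, where 2.05% of all tested genes passed, 1.14% higher and 0.914% lower. Mt4 was lower by 0.90 on the log2 scale (difference -0.90 ± 0.07, 1.87-fold, limma adjusted p = 0.0144), with single differences of -0.84 in CD34 positive, -0.88 in CD34 negative, -0.73 in Mts24 positive and -1.17 in Mts24 negative cells. Nqo1 was higher by 0.78 ± 0.10 (1.72-fold, adjusted p = 0.0320), with 1.11 in CD34 positive, 0.46 in CD34 negative, 0.89 in Mts24 positive and 0.68 in Mts24 negative cells. Both had the same direction in 4 of 4 pairs, though the positive and negative pair of a sort were taken to share pools of mice. The pool correlation in the fit was negative (-0.175), which makes errors of genotype differences smaller. With no pool block Mt4 passed (adjusted p = 0.0317) and Nqo1 did not (adjusted p = 0.0667). Without 1 array Nqo1 passed in no case (adjusted p = 0.0639 to 0.131), and Mt4 was lost without a CD34 negative or any Mts24 array of either genotype (adjusted p = 0.0732 to 0.110).

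Gpx2 had the largest difference of the 10, 0.91 ± 0.17, higher in K14Snail in 4 of 4 pairs, and missed the threshold (95% interval 0.48 to 1.34, adjusted p = 0.0646). Its single differences ran from 0.17 in Mts24 negative cells through 0.83 in CD34 negative and 1.19 in CD34 positive to 1.44 in Mts24 positive cells. Mt1 was at -0.29 ± 0.06 (adjusted p = 0.0706) and Mt2 at -0.17 ± 0.06 (adjusted p = 0.151), each lower in K14Snail in 4 of 4 pairs. The K14Snail arrays of Mt2 (13.30 to 13.49) lay below all wild type arrays (13.54 to 13.65), the only one of the 10 genes without overlap, where 2.89% of all tested genes had none, 1.64% higher and 1.25% lower. Srxn1 was at 0.34 ± 0.11 and higher in 4 of 4 pairs (adjusted p = 0.151), with 0.78 in Mts24 positive cells and 0.09 to 0.31 in the others. Gclc was at -0.08 ± 0.05 (adjusted p = 0.352), Gclm at 0.17 ± 0.10 (adjusted p = 0.301), Txnrd1 at -0.03 ± 0.07 (adjusted p = 0.843) and Hmox1 at -0.41 ± 0.21 (adjusted p = 0.264). The median over the 10 genes was -0.05, against 0.03 over all genes tested.

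At 1 array per group, and so with no test, the difference between K14Snail and wild type reached 2-fold for Gpx2, Nqo1 and Hmox1 in CD34 positive cells, where 4.94% of all tested genes did. It reached 2-fold for Gpx2 in Mts24 positive cells (1.91% of all genes), for Mt4 in Mts24 negative cells (0.737%) and for 0 of the 10 in CD34 negative cells (0.858%). Suprabasal markers had a genotype median of -0.32, with 0 of 11 past limma's threshold, and sebaceous gland markers one of -0.63, with 0 of 10. The mean log2 level of the suprabasal markers was 10.73 in K14Snail and 11.84 in wild type CD34 positive cells, and 11.96 and 11.90 in K14Snail and wild type CD34 negative cells. It was 11.69 in K14Snail and 11.94 in wild type Mts24 positive cells, and 12.48 and 12.29 in K14Snail and wild type Mts24 negative cells. The sebaceous mean was 8.24 in K14Snail and 9.80 in wild type CD34 positive cells, 8.16 and 9.51 in K14Snail and wild type CD34 negative cells, 9.00 and 8.93 in K14Snail and wild type Mts24 positive cells, and 8.55 and 9.00 in K14Snail and wild type Mts24 negative cells. The part of either in the Mt4 difference was not tested.

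**Figure D3:**
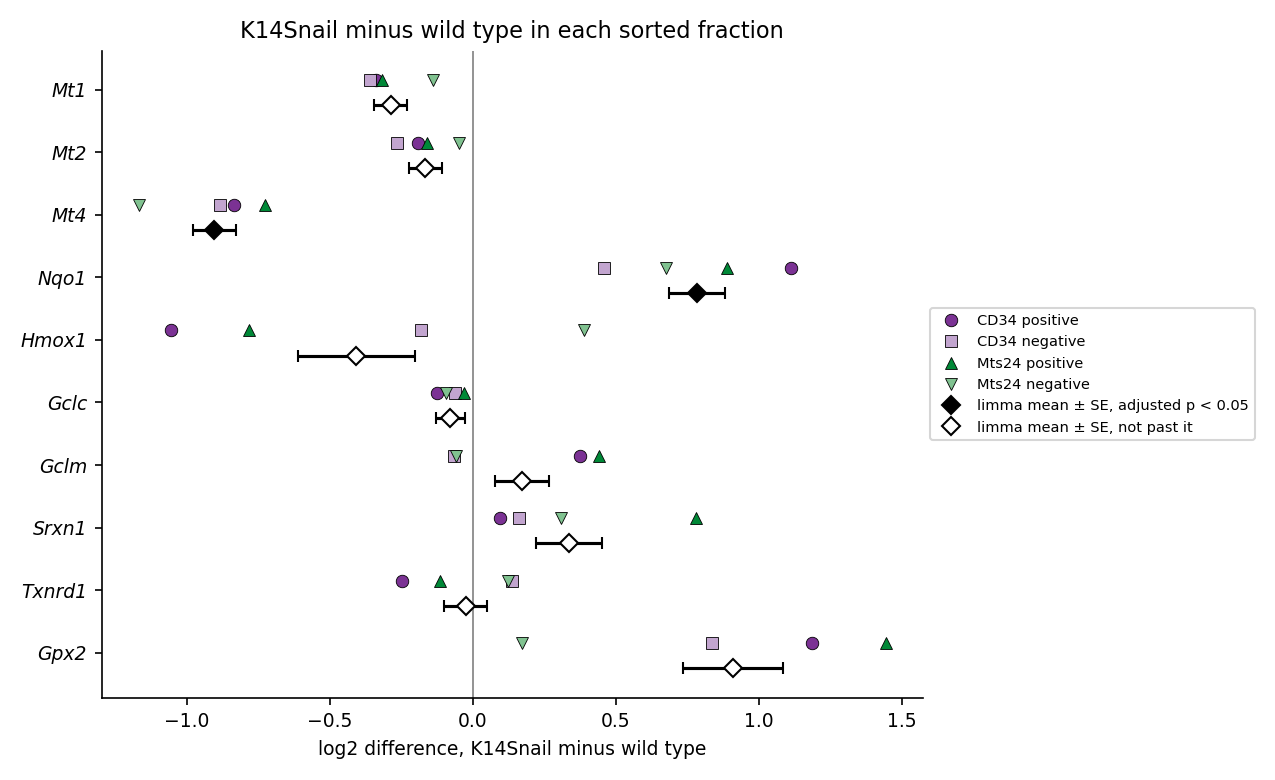
Log2 difference (horizontal axis) of K14Snail minus wild type for each of the 10 genes in CD34 positive, CD34 negative, Mts24 positive and Mts24 negative cells, with limma's mean and its SE as diamonds, filled where the adjusted p is under 0.05. All 4 points of Mt4 lie left of 0 and all 4 of Nqo1 and Gpx2 right of it, and Hmox1 ranges from -1.05 in CD34 positive to 0.39 in Mts24 negative cells.

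The interaction term tested whether the contrast between positive and negative cells depended on genotype. With limma 0 of the 10 genes and 0 of all 10720 genes (0%) passed, while 845 of all genes had an unadjusted p under 0.05. Hmox1 had the largest value of the 10: positive minus negative was -0.31 in K14Snail and 0.57 in wild type in the CD34 sort, and -0.67 in K14Snail and 0.50 in wild type in the Mts24 sort. The interaction was -1.02 ± 0.26 (95% interval -1.70 to -0.35, adjusted p = 0.430). It passed without either Mts24 positive array (-1.21, adjusted p = 0.0362 each), where 651 of all genes passed, and over all its alternatives the adjusted p ran from 0.0362 to 0.998. For Gpx2 it was 0.81 ± 0.26 (adjusted p = 0.519), for Gclm 0.47 ± 0.13 (adjusted p = 0.444), for Nqo1 0.43 ± 0.16 (adjusted p = 0.606) and for Mt4 0.25 ± 0.16 (adjusted p = 0.817). Of 11 myeloid and Langerhans markers 0 passed for the interaction and 0 for genotype with limma. Their summed linear signal, to which bright genes contribute most, was 9678 in K14Snail and 3496 in wild type CD34 positive cells, and 10929 in K14Snail and 3419 in wild type Mts24 positive cells. In CD34 negative cells it was 9269 in K14Snail and 14357 in wild type, and in Mts24 negative cells 14423 and 15512. The interaction median was 1.72 for these myeloid markers and -0.70 for the 11 suprabasal markers, of which 0 passed, against 0.04 over all genes. The part of either list in the Hmox1 values was not tested.

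Transcripts of the main factors that act on these genes did not pass in the comparisons of fractions or genotypes given here, while several of their relatives did. Nfe2l2 lay between 11.27 and 11.52 in all arrays and did not pass in the CD34 sort (-0.16 ± 0.09, adjusted p = 0.273), the Mts24 sort (0.16 ± 0.09, adjusted p = 0.253) or for genotype (0.07 ± 0.05, adjusted p = 0.427). Keap1 (0.12 ± 0.09 and 0.06 ± 0.09 in the CD34 and Mts24 sorts) and the repressor Bach1 (0.03 ± 0.11 and 0.04 ± 0.11) did not pass either. Mtf1 was at -0.30 ± 0.09 in the CD34 sort (adjusted p = 0.0560) and -0.15 ± 0.09 in the Mts24 sort (adjusted p = 0.270). The transcript level of a factor regulated by protein stability or by zinc is not its activity, which these arrays do not measure. Of 13 genes for NRF2 and its regulators, 1 rose and 2 fell in the CD34 sort, and 2 rose and 2 fell in the Mts24 sort. Both counts are near the 23.7% and 22.8% of all genes that passed in these sorts. Bach2, a repressor related to Bach1, rose in CD34 positive (0.84 ± 0.12) and Mts24 positive cells (0.68 ± 0.12), and Dpp3, which binds KEAP1, fell (-0.61 ± 0.14 and -0.75 ± 0.14). The NRF2 relative Nfe2l3 fell in the CD34 sort (-0.44 ± 0.10, adjusted p = 0.0237) and rose in the Mts24 sort (0.43 ± 0.10, adjusted p = 0.0283), a difference of -0.87 ± 0.14 between the sorts (adjusted p = 0.0320). It was the 1 gene of these 13 to pass between the sorts, where 4.08% of all tested genes passed. Mafk, a small Maf partner of NRF2, fell in the Mts24 sort (-0.35 ± 0.09).

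Among 28 other tested NRF2 targets 5 rose and 5 fell in the CD34 sort, and 11 rose and 2 fell in the Mts24 sort. Over all genes 12.1% rose and 11.6% fell in the CD34 sort, and 11.1% rose and 11.7% fell in the Mts24 sort. Their medians were 0.06 in the CD34 and 0.15 in the Mts24 sort, against -0.03 and 0.02 over all genes. In Mts24 positive cells the aldehyde dehydrogenase Aldh3a1 rose by 1.91 ± 0.31 (3.75-fold, adjusted p = 0.0120), the microsomal glutathione transferase Mgst1 by 1.62 ± 0.29, Pir by 1.41 ± 0.10, the glutathione transferase Gstm1 by 1.12 ± 0.15 and the UDP-glucose dehydrogenase Ugdh by 0.77 ± 0.12. In CD34 positive cells Pir rose by 1.22 ± 0.10 (2.33-fold, adjusted p = 0.000883), the epoxide hydrolase Ephx1 by 1.21 ± 0.21 and Ugdh by 0.99 ± 0.12. The exporter Abcc4 fell in both, with -1.99 ± 0.11 in the CD34 and -1.42 ± 0.11 in the Mts24 sort. Abcc1, another exporter (-0.90 ± 0.14), and the malic enzyme Me1 (-1.51 ± 0.28) fell in the CD34 sort. Mgst1 is also high in sebaceous gland. For genotype 0 of the 28 passed limma's test over all genes, and their median was 0.01.

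Relatives of the glutathione and thioredoxin enzymes were mixed as well: of 20 tested, 4 rose and 3 fell in the CD34 sort, 6 rose and 2 fell in the Mts24 sort, and 0 passed for genotype, against 23.7%, 22.8% and 2.05% of all genes. The testis-type thioredoxin reductase Txnrd3 rose by 0.68 ± 0.13 in CD34 positive (adjusted p = 0.0168) and 1.26 ± 0.13 in Mts24 positive cells (adjusted p = 0.00401), the direction opposite to Txnrd1. Txnrd3 was at 10.33 in K14Snail and 9.95 in wild type CD34 positive cells, against 9.52 and 9.40 in K14Snail and wild type CD34 negative cells. The superoxide dismutase Sod1 rose by 0.79 ± 0.09 and 0.74 ± 0.09, and the peroxidase Gpx8 by 0.99 ± 0.21 and 1.47 ± 0.21. The lipid hydroperoxidase Gpx4 rose by 1.38 ± 0.18 in the Mts24 sort. Ggct, which acts in glutathione breakdown, fell by 1.46 in the CD34 and by 1.42 in the Mts24 sort on the log2 scale.

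Of 22 tested genes for zinc and copper handling, 5 rose and 4 fell in the CD34 sort, 3 rose and 6 fell in the Mts24 sort, and 0 passed for genotype, against 23.7%, 22.8% and 2.05% of all genes that passed. The zinc transporter Slc39a13 rose in both sorts (1.44 ± 0.15 and 1.00 ± 0.15), and Slc39a6 fell in both (-1.06 ± 0.21 and -1.40 ± 0.21). The zinc importer Slc39a8 rose in the CD34 sort (0.79 ± 0.09) and was at -0.28 ± 0.09 in the Mts24 sort, which did not pass (adjusted p = 0.0866). The importer Slc39a10 rose in the CD34 sort (0.95 ± 0.15) and was at -0.22 ± 0.15 in the Mts24 sort, which did not pass (adjusted p = 0.348). The difference between the sorts passed for both, with 1.07 ± 0.13 for Slc39a8 (adjusted p = 0.0173) and 1.17 ± 0.22 for Slc39a10 (adjusted p = 0.0482). They were the 2 of these 22 genes that passed between the sorts, where 4.08% of all tested genes did. Mt3, the metallothionein known from brain, lay between Mt4 and Mt2 on the chromosome and was at 8.03 to 8.54, over the low-value filter on every array (named after its values were seen).

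**Figure D4:**
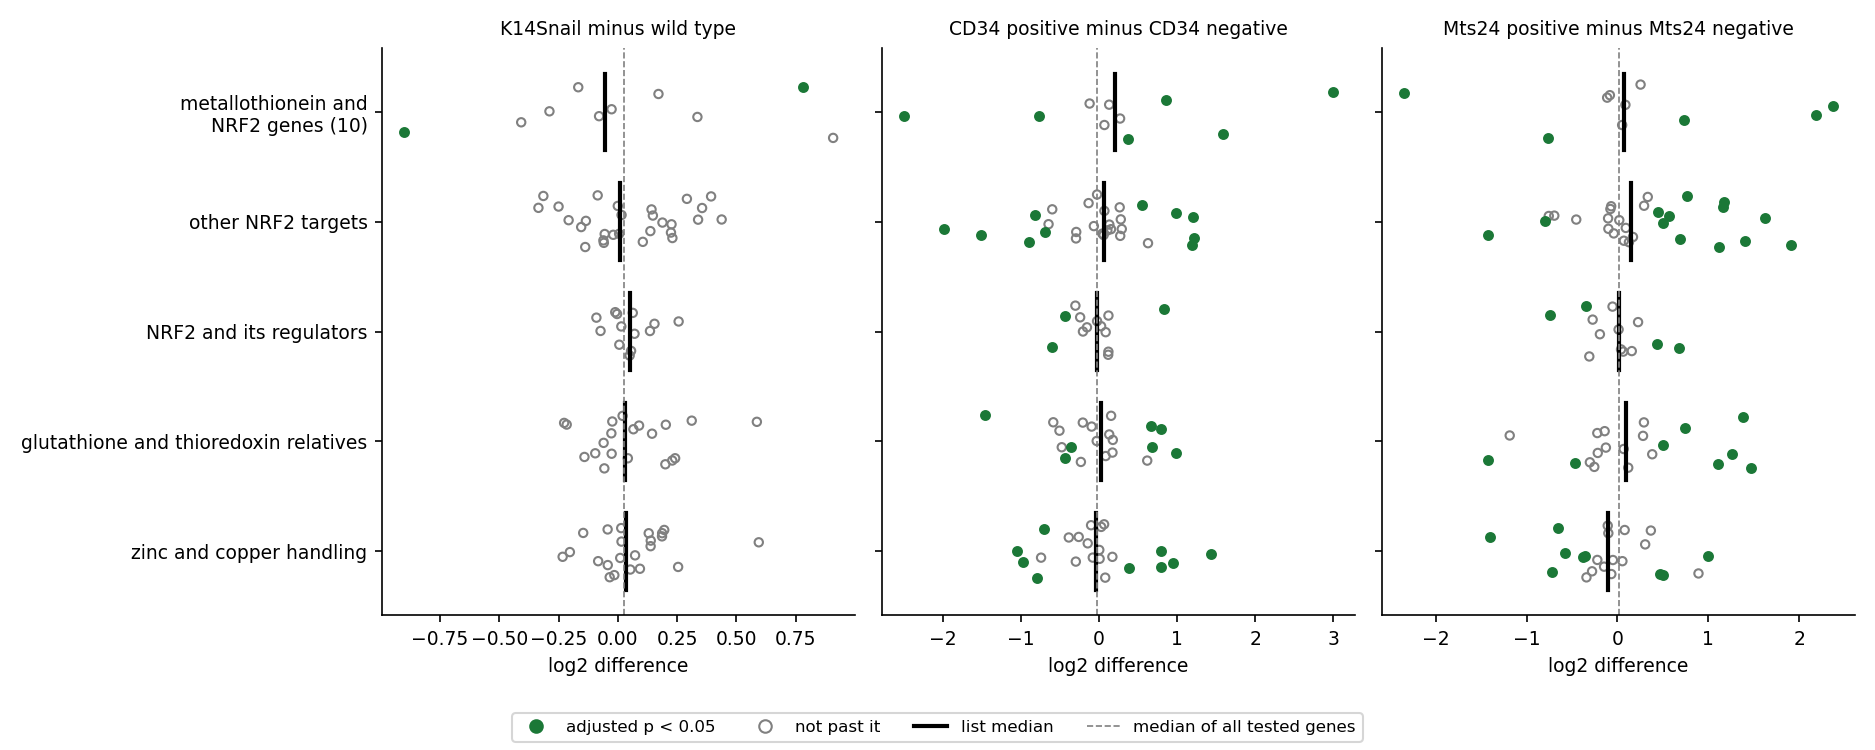
Log2 difference (horizontal axes) of every tested gene in the 10-gene set and in 4 related gene lists, for K14Snail minus wild type and for positive minus negative cells of the CD34 and of the Mts24 sort. Filled points passed limma's test at an adjusted p of 0.05, black bars are list medians and dashed lines the median of all 10720 genes. Filled points stand on both sides of 0 in every list of the sort comparisons, and for genotype they are Mt4 and Nqo1 alone.

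Genes whose level over the 8 arrays was most like that of each of the 10 were listed by Pearson's r, as a description over arrays that share pools. With 10720 genes and 8 points high values are common, and the 30 nearest pairs had r between 0.93 and 1.00. For Nqo1 they were Gys1, the muscle-type glycogen synthase (0.996), Fam216a (0.991) and Mzt2 (0.990). For Gpx2 they were Fmnl2, a formin that acts on actin (0.995), Pde6d (0.987) and Msrb3, a methionine sulfoxide reductase (0.983), which was also among the nearest of Gclm (0.980). Fmnl2 lay under 7.70 in every negative array, so it passed the filter only through the positive ones. Txnrd1 was nearest to the ceramide kinase Cerk (0.992), Tgm7 (0.991) and Tmem65 (0.991), and Mt4 to Fbrsl1 (0.985), Ube3b (0.984) and Ralgapa1 (0.984), whose levels spanned under 1 log2 unit. Those of Mzt2, Pde6d and Tmem65 also spanned under 1 log2 unit. For Hmox1 all 3 were late cornified envelope genes, Lce1k (0.981), Lce1c (0.975) and Lce1b (0.971), close paralogues that can share probe signal. Lce1k was at 8.57 in K14Snail and 9.78 in wild type CD34 positive cells, against 8.99 in K14Snail and 9.27 in wild type CD34 negative cells. In the Mts24 sort it was at 9.50 in K14Snail and 10.02 in wild type positive cells, against 9.98 in K14Snail and 9.58 in wild type negative cells. Like Hmox1 it was lower in the positive array of both K14Snail pairs and higher in that of both wild type pairs. Because Lce1k was chosen by its r with Hmox1 over these same 8 arrays, this likeness is no separate support for the Hmox1 pattern.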

How the data were processed

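For each of 8 Affymetrix arrays the authors deposited 1 log2 value per probe set. RMA, named in the submitters' processing notes, combines background correction, normalization across arrays and a probe summary; for its version and the genome build the sources used here give nothing. Values ran from 3.04 to 14.49, which is a log2 range, array medians lay between 7.32 and 7.42, and no arrays were identical. Of 28874 probe sets 21789 have 1 gene symbol in the platform annotation, 1621 several and 5464 none. Those with 1 symbol were used, and the probe set with the highest mean stood for each of 999 genes with several.

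One limma model (limma 3.58.1, statmod 1.5.0, R 4.3.3) was fitted to the 10720 genes, with terms for the 4 fractions and genotype, and duplicateCorrelation treated arrays of one genotype and marker as a randomly blocked pool, leaving 3 residual degrees of freedom. The interaction added genotype by positive fraction. It had 2 residual degrees of freedom and used the pool correlation of the first model, since its own could not be estimated. Benjamini-Hochberg adjustment ran over all tested genes, calls were made under 0.05, and errors are limma's moderated standard errors. With 1 array per group, genotype differences rest on 4 pairs of arrays and sort differences on 2, and their number limits the precision. The model takes the disagreement of these differences between fractions or genotypes as error. The p-values therefore do not measure a spread between mice or replicate pools. Each pool held 1 genotype, so differences between pools enter the genotype differences. That positive and negative cells of a sort and genotype came from the same mice was taken from their equal pool sizes and is not stated. A simulation with equal, independent noise and changes planted in the CD34 positive arrays was run for the CD34 comparison only. It did not cover the genotype or interaction tests, or a correlation within pools. The genes, lists and models were chosen with earlier results of these data known. The 10 genes were always named, with 4 regulators (Nfe2l2, Keap1, Bach1 and Mtf1), up to 6 passing genes of each pathway list and comparison by smallest p-value, and the 3 nearest genes by Pearson's r. Lists of glucocorticoid responsive, heat shock, bulge, upper follicle, basal, fibroblast and melanocyte genes were measured too: for genotype 0 of 9, 0 of 9, 0 of 10, 0 of 8, 0 of 8, 1 of 4 (Fbln2, named after its values were seen) and 0 of 6 tested genes passed. In the CD34 sort 3, 3 and 1 of the glucocorticoid responsive, heat shock and basal genes passed, and in the Mts24 sort 2, 2 and 1; the marker lists' sort counts stand with the results. Python 3.11.15 with pandas 2.3.3, numpy 2.4.6 and matplotlib 3.10.9 made tables and plots. Alternatives were no pool block, the pool as a fixed block, other filters and normalizations, the mean over probe sets, an intensity trend, and leaving out each array or pool.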

Additional observations from a re-analysis of the deposited data

Results flagged for a closer look

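Hmox1, Gclm and Txnrd1 had pairs that moved in opposite directions in separate groups. For Hmox1 positive minus negative was -0.31 and -0.67 in the K14Snail pairs and 0.57 and 0.50 in the wild type pairs, a difference between genotypes of -1.02 that did not pass the interaction test (limma adjusted p = 0.430). For Gclm, K14Snail minus wild type was 0.37 and 0.44 in the positive fractions and -0.07 and -0.06 in the negative fractions, a difference of 0.47 (adjusted p = 0.444). For Txnrd1 it was -0.25 and -0.11 in the positive and 0.13 and 0.12 in the negative fractions, a difference of -0.31 (adjusted p = 0.689). Between the sorts, the positive minus negative difference itself differed for Nfe2l3 by -0.87 (limma adjusted p = 0.0320), for Slc39a8 by 1.07 (adjusted p = 0.0173) and for Slc39a10 by 1.17 (adjusted p = 0.0482). These were 1 of 13 genes for NRF2 and its regulators and 2 of 22 for zinc and copper handling. Of the 28 other NRF2 targets and the 20 glutathione and thioredoxin relatives 0 passed, where 4.08% of all tested genes did. The genes named here were not recomputed under the alternatives.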

How the results depend on the processing

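Of 786 recomputed values of the 10 genes 683 kept their direction and side of the threshold, 81 lost a call, 5 gained one and 17 changed sign. Only differences that had passed can lose a call, and the 683 include many that had not passed and stayed so. The 786 cover all 10 genes for genotype and both sorts, and only some of them for the other comparisons. With the pool as a fixed replicate block 2436 genes and 6 of the 10 passed in the CD34 sort, 2221 genes and 4 of the 10 in the Mts24 sort, and 232 genes for the difference between the sorts, against 437. Genotype and comparisons across sorts could not be fitted with that block, nor the interaction with a pool left out.

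The genotype count of 220 genes became 41 with no pool block (1 of the 10 genes), 1 without either CD34 pool and 0 without either Mts24 pool (0 of the 10 each), and 5 to 75 without 1 array (0 to 1 of the 10). The CD34 count of 2542 became 1422 without either Mts24 pool (3 of the 10, as without the K14Snail CD34 pool) and 1154 to 2280 without 1 array (3 to 5 of the 10). The Mts24 count of 2448 became 0 without either Mts24 pool (0 of the 10) and 661 to 2897 without 1 array (3 to 5 of the 10). For the difference between the sorts 744 genes and 1 of the 10 (Nqo1, -1.12, limma adjusted p = 0.0383) passed without the K14Snail CD34 pool, 0 without either Mts24 pool and 14 to 830 without 1 array. CD34 positive against Mts24 positive cells gave 949 genes without the K14Snail and 814 without the wild type CD34 pool, 0 without either Mts24 pool and 382 to 1257 without 1 array, against 1494. Its 1 call among the 10 genes became 0 with no pool block, no filter, centred arrays, repeated quantile normalization, or any pool or array left out. The negative fractions gave 14 genes with a filter on 4 of 8 arrays, 4 with centred arrays, 2 with repeated quantile normalization, 20 with an intensity trend, 0 without any pool and 0 to 36 without 1 array, against 7. The interaction gave 0 to 651 genes (0 to 1 of the 10) without 1 array.

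All values that changed sign belonged to differences that did not pass. The genotype difference of Txnrd1 became 0.0039 without either CD34 pool and ran from -0.073 to 0.042 without 1 array. In the CD34 sort Hmox1 became -0.31 without the wild type CD34 pool and ran from -0.30 to 0.56 without 1 array, Srxn1 from -0.31 to 0.071 and Mt2 from -0.0066 to 0.14. In the Mts24 sort Mt2 became -0.0023 with centred arrays and -0.0041 without the wild type pool, Hmox1 0.50 without the K14Snail pool and Srxn1 0.12 without the wild type pool. Without 1 array they ran from -0.033 to 0.14, -0.60 to 0.43 and -0.42 to 0.20, in that order. Leaving out arrays or pools also removes residual degrees of freedom; the cause of the other changes was not tested. Values near or under 7.70 limit what can be read from low genes.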
